A study of Ovis aries with 4 samples.

Results

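A set of 150 sheep genes was described that had at least 10 unique molecular identifiers (UMIs) summed over both whole cells libraries and at most 50 over both nuclei libraries. Each UMI stands for 1 captured molecule of RNA. The set was chosen on these sums from the 26478 genes listed, with the genes of the mitochondrial genome and ribosomal protein genes left out, and it made up 1.51% of the 9907 such genes that reached the whole cells minimum. Because the sums chose the genes, their difference between whole cells and nuclei is given as a description, and calls from a fit over all genes support nothing about it.

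The series set whole cells against isolated nuclei as input for droplet-based RNA sequencing of frozen brain. The tissue was striatum, a deep region of the forebrain, from 4 sheep aged 5 years, with no other treatment named. Whole cells were released with papain, an enzyme that loosens tissue, and nuclei by homogenisation in a detergent buffer. Each kind had 2 libraries, and each library held material pooled from 2 animals. The titles give sheep 1 and 2 for replicate 1 and sheep 3 and 4 for replicate 2. For the second cell suspension the protocol text instead names animals 2 and 3, and the titles were followed here. The labels name no strain or sex, and the 2 animals of a pool were not separated.

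RNA is made in the nucleus and most of it is then exported. Ribosomal RNA and messenger RNA in use lie mostly in the cytoplasm, while many small RNAs that guide splicing or the modification of other RNAs work in the nucleus. Mitochondria hold a genome of their own, and RNA made from it is found outside the nucleus. Nuclear genomes also carry copies of stretches of mitochondrial DNA, among them the humanin-like MTRNR2L genes, so that reads can be hard to assign between the original and its copy.

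The libraries differed greatly in depth and content. They held 2162 and 32500 barcodes for whole cells replicates 1 and 2, and 8815 and 8723 for nuclei replicates 1 and 2. Each barcode stands for 1 droplet. The mitochondrial share of UMIs was 88.7% and 86.9% for whole cells and 0.779% and 0.776% for nuclei. Without mitochondrial genes, the whole cells libraries kept 125974 and 2512837 UMIs and the nuclei libraries 69924470 and 50705635. At least 200 genes were seen in 68 and 269 whole cells barcodes and in 8810 and 8720 nuclei. The libraries shared 2 to 87 barcodes per pair, at most 0.997% of the smaller library. The striatal gene TAC1, which encodes the substance P precursor, had 9 and 974 whole cells UMIs and 8698 and 4253 nuclei UMIs. Fewer cells of a type and less RNA per cell cannot be told apart in such library sums.

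The name "counted almost only in whole cells" held for a minority of the set. Nuclei held more UMIs than whole cells for 90 of the 150 genes, 6 genes had equal numbers, and 54 had more UMIs in whole cells. At least 90% of the UMIs came from whole cells for 19 genes. The median gene had 17 UMIs over the whole cells libraries and 26.5 over the nuclei libraries. The nuclei libraries together held 45.7 times the non-mitochondrial UMIs of the whole cells libraries, so the rule compares unequal depths. Its limits correspond to 3.79 UMIs per 1000000 non-mitochondrial UMIs (CPM) in whole cells and 0.414 CPM in nuclei, and no gene could enter with a CPM ratio under 9.14. The members are therefore called by the rule here: genes with few nuclei UMIs.

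On the CPM scale, the members' median fold of whole cells over nuclei was 34.1 and the lowest was 9.52, beside a median of 1.02 over the 9907 genes. A fold of at least 100 was reached by 32 members, and by 18 genes that were no members because nuclei held more than 50 of their UMIs. In all, 124 genes outside the set had a fold at or above the members' median. In the quasi-likelihood test of edgeR, fitted over the whole table on library sums, 114 members passed the expression filter and all 114 were called higher in whole cells at an adjusted p under 0.05. Of all tested genes, 22.4% were called in that direction and 29.8% in the other. With library size alone in place of TMM scaling these shares were 3.16% and 79.4%. The rule used this contrast, so nothing is read from the count. The 36 members without a fit did not pass the expression filter, which looks at single libraries as well as at totals. AJM1, with 0 and 24 whole cells UMIs, was among them, while CTXN1, with 1 and 10, was fitted.

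**Figure D1:**
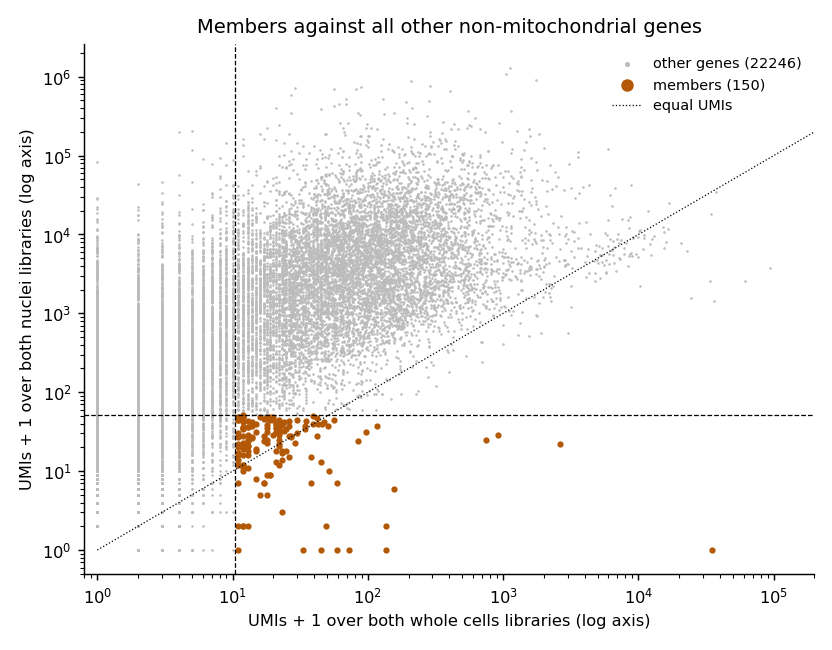
UMIs plus 1 summed over both whole cells libraries (x axis, log scale) and over both nuclei libraries (y axis, log scale). Each point is a gene, mitochondrial genes left out, with the 150 members in orange and the rule's limits as dashed lines. Most members sit just inside the corner of the limits and above the dotted line of equal UMIs, and ENSOARG00020007267 stands apart at the lower right.

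A single gene with no symbol, ENSOARG00020007267, held 81.7% of the members' whole cells UMIs. It had 4575 and 30297 UMIs in whole cells replicates 1 and 2 and 0 in both nuclei libraries. This was 36317 and 12057 CPM in whole cells, and it ranked number 1 and number 7 among all non-mitochondrial genes in those libraries. The nuclei's 0 allows up to 0.0249 CPM (3 counts over both libraries), which makes the level at least 531377-fold higher in whole cells. UMIs of this gene appeared in 1724 of the 2162 barcodes of replicate 1 and in 19144 of the 32500 barcodes of replicate 2. The files pair this identifier with no name, so what RNA it stands for is not given here.

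Because of that gene the members' share of a library is mostly a measure of 1 gene. Of the non-mitochondrial UMIs, members made up 4.08% for whole cells replicate 1 (Wilson 95% interval 3.97 to 4.19) and 1.49% for replicate 2 (1.48 to 1.51). In nuclei they took 0.00288% (0.00276 to 0.00301) and 0.00348% (0.00333 to 0.00365). Intervals here and below cover counting error only. Without ENSOARG00020007267 the whole cells shares were 0.451% and 0.289%. The first 4 members by UMIs held 91.7% of the members' whole cells UMIs, and 18 members had exactly 10 UMIs there.

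The next 4 members by whole cells UMIs also had no symbol. ENSOARG00020016723 had 237 and 2382 UMIs in whole cells against 18 and 3 in nuclei. ENSOARG00020017311 had 68 and 845 in whole cells against 13 and 15 in nuclei, and ENSOARG00020002046 had 46 and 696 against 19 and 5. ENSOARG00020019802 was lower, at 13 and 143 against 4 and 1. All 4 were detected in each of the 4 libraries, and for each the lower whole cells CPM lay far above the higher nuclei CPM. Their folds on the CPM scale were 5701, 1491, 1413 and 1426 in that order.

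Besides ENSOARG00020007267, 6 members had 0 UMIs in both nuclei libraries. MTRNR2L3 is one of the humanin-like genes, which resemble the large mitochondrial ribosomal RNA gene. It had 10 and 125 UMIs in whole cells. Its fold was at least 2057-fold higher in whole cells, again with 3 counts over both nuclei libraries. The related MTRNR2L7 had 5 and 43 UMIs in whole cells against 0 and 1 in nuclei. The symbols of MTRNR2L3, MTRNR2L7 and the histone gene H3C1 stand only in the gene list of the whole cells libraries, and those of 5 snoRNA members only in the list of the nuclei libraries. Reads from the mitochondrial gene may be shared with both MTRNR2L genes, so their counts are uncertain.

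A pair of genes named 5_8S_rRNA, for the small ribosomal RNA that pairs with the large one inside the ribosome, also had 0 nuclei UMIs. The first (ENSOARG00020007251) had 10 and 48 UMIs in whole cells and the second (ENSOARG00020016707) 8 and 24. Both were present in each whole cells library, at 79.4 and 19.1 CPM for the first and at 63.5 and 9.55 CPM for the second. Reads can be split between such genes where their sequences are alike, which was not checked, so the 2 counts are uncertain. Another 3 members at 0 in nuclei had no symbol and were singled out after their values were seen. ENSOARG00020007120 had 18 and 54 whole cells UMIs, ENSOARG00020000970 had 4 and 40, and ENSOARG00020002551 had 0 and 10.

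Levels were also set against mitochondrial UMIs, a denominator chosen after these values were seen. It divides the pooled fold of every gene, member or not, by the same factor of 857 and leaves the order of the folds as it was. When counted per 1000000 mitochondrial UMIs, ENSOARG00020017311 stood at 68.8 and 50.5 in whole cells against 23.7 and 37.8 in nuclei. ENSOARG00020002046 stood at 46.5 and 41.6 in whole cells against 34.6 and 12.6 in nuclei. For ENSOARG00020019802 the values were 13.1 and 8.55 against 7.29 and 2.52. The whole cells libraries remained the higher ones for all 3, and pooled over the libraries of a kind the folds, over 1000 on the CPM scale, were 1.74, 1.65 and 1.67. The nuclei values of these genes rest on 28, 24 and 5 UMIs.

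ENSOARG00020016723 stood at 239.6 and 142.4 per 1000000 mitochondrial UMIs in whole cells against 32.8 and 7.56 in nuclei, a pooled fold of 6.66. ENSOARG00020007267 stood at 4625 and 1811 in whole cells, where 0 UMIs in nuclei allow up to 3.17. Of the 143 members with nuclei UMIs, 6 were higher in whole cells per mitochondrial UMI and 137 were higher in nuclei. Of all 9900 genes with the whole cells minimum and nuclei UMIs, 9 (0.0909%) were higher in whole cells on that scale, 3 of them no members. These counts divide the folds that the rule used at another value, and nothing is read from them. The other 2 of the 6 were MTRNR2L7, at a fold of 2.56, and ENSOARG00020002573, named after its values were seen, at 7.20. ENSOARG00020002573 had 11 and 124 UMIs in whole cells against 1 and 0 in nuclei. Whether members carry reads of mitochondrial RNA was not tested.

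**Figure D2:**
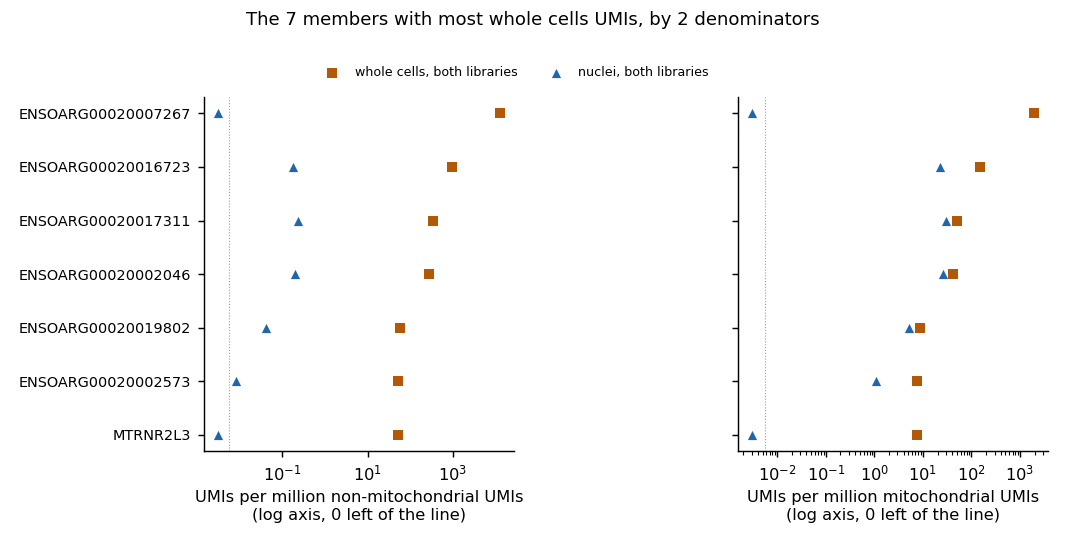
The 7 members with most whole cells UMIs, per 1000000 non-mitochondrial UMIs (left) and per 1000000 mitochondrial UMIs (right), both on log axes. Squares are the 2 whole cells libraries pooled and triangles the 2 nuclei libraries pooled, and triangles left of the dotted line are genes at 0. ENSOARG00020017311, ENSOARG00020002046 and ENSOARG00020019802 are over 1000-fold apart on the left and under 2-fold apart on the right.

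Whole cells barcodes were also split by their mitochondrial percent, again after the values were seen. In replicate 2, ENSOARG00020017311 had 0.534, 0.495 and 0.519 UMIs per 10000 mitochondrial UMIs in barcodes under 80%, from 80 to under 90%, and at 90% and above. ENSOARG00020002046 had 0.421, 0.422 and 0.403. These 2 thus differed little between strata, while all non-mitochondrial UMIs went from 4089 over 1568 to 888 per 10000, a course that the split itself produces. ENSOARG00020007267 went from 26.3 over 20.2 to 12.4, and ENSOARG00020016723 from 2.12 over 1.52 to 1.10. ENSOARG00020019802, with 15, 92 and 36 UMIs, went from 0.154 over 0.0875 to 0.0688. The strata of ENSOARG00020007267, ENSOARG00020016723 and ENSOARG00020019802 lay less far apart than those of the non-mitochondrial UMIs as a whole and farther apart than those of ENSOARG00020017311 and ENSOARG00020002046.

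In replicate 1 the strata were thin. ENSOARG00020007267 went from 90.5 over 77.9 to 35.1 and ENSOARG00020016723 from 4.23 over 3.17 to 2.02. ENSOARG00020017311 rested on 2, 8 and 58 UMIs and went from 0.201 over 0.620 to 0.763. ENSOARG00020002046 rested on 2, 4 and 40 UMIs and went from 0.201 over 0.310 to 0.526. The UMIs of these last 2 genes under 80% were too few to compare the strata of replicate 1. ENSOARG00020019802 had 3, 1 and 9 UMIs there, too few for an order.

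The order of the strata depended on the denominator. Per 10000 non-mitochondrial UMIs, ENSOARG00020007267 went from 128.5 over 471 to 770 in replicate 1 and from 64.4 over 128.9 to 139.1 in replicate 2. ENSOARG00020016723 went from 6.01 over 19.2 to 44.4 and from 5.17 over 9.71 to 12.3. Both genes were thus lowest in the most mitochondrial barcodes per mitochondrial UMI and highest in the same barcodes per non-mitochondrial UMI, in each library. In replicate 2, ENSOARG00020017311 went from 1.31 over 3.16 to 5.85 and ENSOARG00020002046 from 1.03 over 2.69 to 4.54 per 10000 non-mitochondrial UMIs, so neither was level on that denominator. The split sets both denominators, so no course of any of these genes is read from either.

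**Figure D3:**
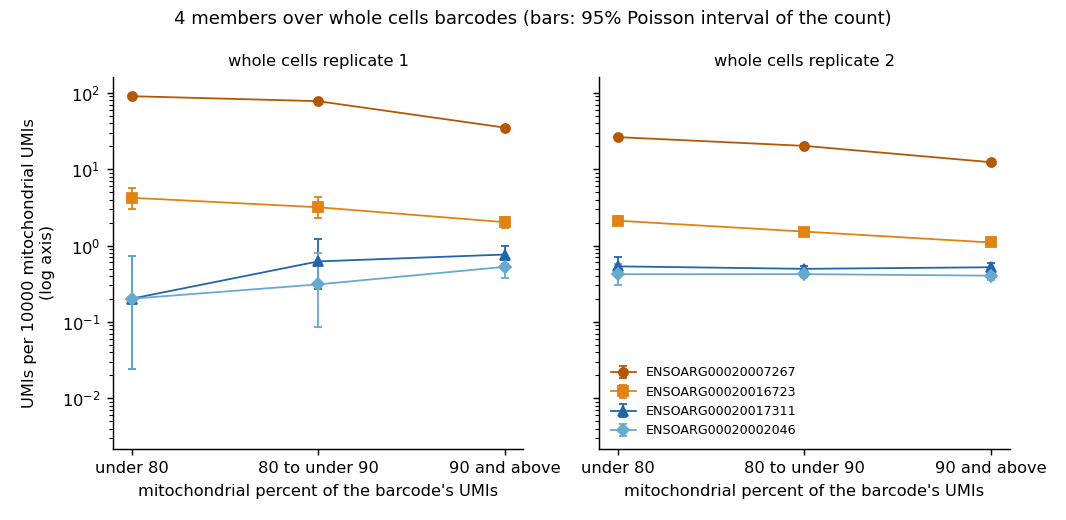
UMIs per 10000 mitochondrial UMIs (y axis, log scale) of 4 members in whole cells barcodes grouped by mitochondrial percent (x axis), replicate 1 on the left and replicate 2 on the right. Bars are 95% Poisson intervals of the count, which cover counting error only. In replicate 2 the lines of ENSOARG00020017311 and ENSOARG00020002046 are level, near 0.5 and 0.4, and those of the other 2 genes slope downward on this denominator, while per non-mitochondrial UMI all 4 genes are highest at 90% and above.

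Small RNAs that work in the nucleus were among the members as well. On the list of spliceosomal RNAs, snoRNAs and scaRNAs, 21 genes reached the whole cells minimum and 10 of them were members, beside the 1.51% over all genes at that minimum. Of the 1736 genes of the list, 1644 were at or under the nuclei maximum, but only the 10 members among them reached the whole cells minimum. The nuclei maximum kept out the rest of the 21. U1, which recognises the start of introns, had 2 and 35 UMIs in whole cells against 6 and 8 in nuclei. Of the pair of members named U4, a partner of U6 in the spliceosome, the first had 0 and 22 UMIs in whole cells against 6 and 11 in nuclei. The second had 0 and 17 against 3 and 1. U1 and both U4 genes thus had more UMIs in whole cells despite the smaller depth there.

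SNORA53 belongs to the class of snoRNAs that guide pseudouridylation. It had 0 and 16 UMIs in whole cells against 2 and 4 in nuclei, and SNORA10, of the same class, had 0 and 10 against 1 and 0. Of the 10 spliceosomal and snoRNA members, 6 had more UMIs in whole cells. SNORD107, with 2 and 8 in whole cells against 39 and 9, and SNORD58, with 0 and 12 against 12 and 8, had more in nuclei. Vault, the RNA of the vault particle of the cytoplasm, had 0 and 11 against 5 and 4. SNORA10, SNORD107 and SNORD58 were named after their values were seen. Small RNA genes of this kind occur in many copies and some lie inside other genes, so reads can be shared, and the counting rule for strand and introns is not given in the sources used here.

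Protein genes with a symbol numbered 46, and 6 of them had more UMIs in whole cells than in nuclei. Their median was 17 UMIs in whole cells and 33 in nuclei, and 23 had no UMI in whole cells replicate 1. The groups by role that follow were made after the values were seen. Symbols as a whole were rare in the set: 40.7% of members had one, against 87.3% of the 9907 genes with the whole cells minimum and 86.7% of the 4325 other genes with 10 to 50 whole cells UMIs. The 89 members without a symbol included 37 with more UMIs in whole cells.

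Among the 7 genes of immune and interferon response, IFI35, an interferon-induced protein, had 1 and 45 UMIs in whole cells against 30 and 11 in nuclei. CXCL9, an interferon-induced chemokine that attracts T cells, had 0 and 25 against 10 and 17, and 8 of its 27 nuclei UMIs came from a single nucleus. RTP4, another interferon-induced gene, had 0 and 23 against 21 and 20. IFI35 was the 1 gene of the group with more UMIs in whole cells. MYD88, the adaptor of Toll-like receptors, had 0 and 10 against 20 and 28, and its fold of 9.52 was the lowest in the set together with that of SNORD107.

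Matrix and vessel wall genes also numbered 7. GPIHBP1, which carries lipoprotein lipase to the inner face of capillaries, had 1 and 24 UMIs in whole cells against 11 and 3 in nuclei. LUM, the matrix proteoglycan lumican and a fibroblast marker, had 1 and 18 against 19 and 26. PCOLCE, an enhancer of procollagen processing singled out after its values were seen, had 3 and 15 against 28 and 19. Of the 18 whole cells UMIs of PCOLCE, 27.8% came from 1 barcode. GPIHBP1 was the 1 gene of this group with more UMIs in whole cells.

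The calcium-binding S100A5 was the sole member among the 9 S100 genes that reached the whole cells minimum. It had 1 and 49 UMIs in whole cells against 15 and 21 in nuclei, a fold of 63.5. TRIP6, a LIM-domain adaptor of cell adhesion sites that also acts in transcription, had 2 and 53 against 33 and 11. ETV2, a transcription factor of vessel and blood cell development, had 1 and 28 against 10 and 19, so that both kinds of library held 29. Of the 18 histone genes with the minimum, 2 were members. H3C1 had 0 and 10 UMIs against 4 and 15, and H1-1 had 0 and 10 against 12 and 32. Both histones had all their whole cells UMIs in replicate 2.

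Enzymes of ubiquitin and related pathways had no UMI in whole cells replicate 1 in 2 of the best counted cases. FBXW5, a substrate receptor of a ubiquitin ligase, had 0 and 25 UMIs in whole cells against 37 and 5 in nuclei. SENP3, a SUMO protease of the nucleolus, had 0 and 22 against 19 and 18. None of the 6 genes grouped under ubiquitin and signalling enzymes had more UMIs in whole cells than in nuclei. ENHO, which encodes the secreted peptide adropin, had 0 and 21 against 18 and 11. HCRT, the orexin precursor of hypothalamic neurons, was singled out after its values were seen, with 0 and 17 against 10 and 12.

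The remaining symbols among the 20 best counted were C12orf75, SMIM30, AJM1 and KBTBD11. C12orf75 had 4 and 30 UMIs in whole cells against 27 and 15 in nuclei, and SMIM30, a small membrane protein gene, had 1 and 32 against 25 and 11. AJM1, a component of apical cell junctions, had 0 and 24 against 16 and 1, and KBTBD11 had 0 and 24 against 26 and 7. AJM1 alone of these 4 had more UMIs in whole cells. All 20 genes had a higher CPM in whole cells replicate 2 than in either nuclei library, and for 8 of them whole cells replicate 1 was at 0.

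**Figure D4:**
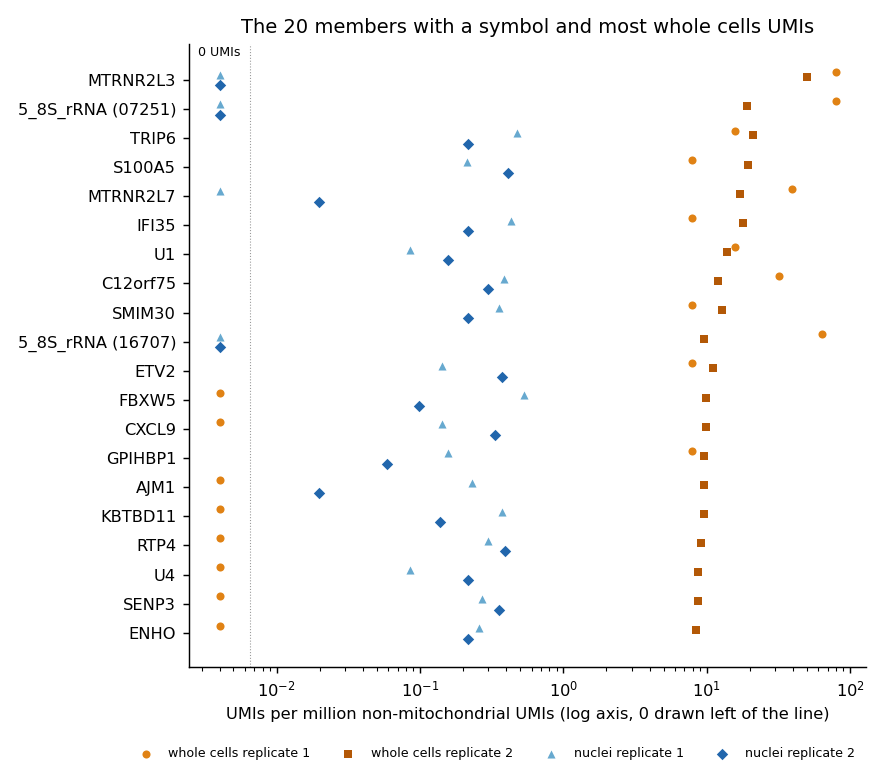
CPM of the 20 members with a symbol and most whole cells UMIs, 1 line of points per gene (x axis, log scale, 0 drawn left of the dotted line). Circles and squares are whole cells replicates 1 and 2, triangles and diamonds nuclei replicates 1 and 2. Whole cells replicate 2 lies to the right of both nuclei libraries for each gene, and whole cells replicate 1 is at 0 for FBXW5, CXCL9, AJM1, KBTBD11, RTP4, U4, SENP3 and ENHO.

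Most gene lists held no member. Members make up 1.51% of all genes at the whole cells minimum, so a count of 0 in a list of this size lies near that share. Of the oxidative phosphorylation genes encoded in the nucleus, 63 reached the whole cells minimum, and 0 were members. The same 0 was found for 4 metallothionein, 21 cytoplasmic translation, 43 proteasome and 66 mitochondrial ribosome genes with the minimum. No marker of astrocytes, oligodendrocytes, microglia or neurons was a member, with 7, 7, 7 and 10 markers at the minimum. LUM was the 1 member among 4 fibroblast markers at the minimum. Nuclei UMIs over all genes of a list came to 244595 for oxidative phosphorylation and 88735 for translation.

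For some members, more than 50% of the nuclei UMIs lay in nuclei that share a class of markers. The classes, set after the values were seen, hold nuclei with at least 2 markers of a fixed list. They are no cell types: a nucleus can belong to several, doublets were not removed, and no correction was made for free RNA. The 5858 nuclei with neuronal markers held 76.7% of all non-mitochondrial nuclei UMIs, and the 830 with ependymal markers 22.9%. A member with more than 50% of its UMIs in the neuronal class can thus still lie under the share of all UMIs. For GPIHBP1, 11 of 14 nuclei UMIs (78.6%) came from nuclei with endothelial markers, which held 7.68% of all non-mitochondrial nuclei UMIs. Nuclei with mural markers held 6 of the 14 (42.9%) and 2.87% of all, and 4 of the 14 UMIs came from a single nucleus. For MYD88, 27 of 48 (56.2%) came from nuclei with microglial markers, which held 5.14%. BGN, the proteoglycan biglycan, had 29 of 42 UMIs (69.0%) and ENHO 18 of 29 (62.1%) in nuclei with astrocyte markers, which held 14.6%. SLC22A18 had a larger share there, with 35 of 48 (72.9%). CABP1, a neuronal calcium-binding protein gene, had 35 of 35 in nuclei with neuronal markers. Other members had smaller shares in such classes. Nuclei with fibroblast markers held 5 of 45 UMIs of LUM (11.1%), against 0.522% of all, and nuclei with neuronal markers held 31. PCOLCE had 3 of 47 in nuclei with endothelial markers. In nuclei with microglial markers RTP4 had 4 of 41 and CFB 0 of 33. The genes given are examples, and no count over all members is given. These UMIs are few, and MYD88, BGN, CABP1, SLC22A18 and CFB were picked after their values were seen. Summed over 7 astrocyte markers, the level was 2056 and 3017 CPM in whole cells against 433.9 and 522.8 in nuclei, with none at 0. Of the 13 marker lists, 5 had a higher summed CPM in both whole cells libraries than in both nuclei libraries: astrocyte, microglia, mural, erythrocyte and lymphocyte. The erythrocyte and lymphocyte lists each stood at 15.9 CPM in whole cells replicate 1, with 6 of 7 and 5 of 7 markers at 0 there. At 7.94 CPM per UMI these 2 levels rest on very few UMIs, so the direction of both lists is uncertain. Microglial markers stood at 166.7 and 242.8 CPM against 45.6 and 66.1, with 3 of 8 at 0 in whole cells replicate 1, and mural markers at 31.8 and 40.6 against 16.6 and 21.2, with 2 of 6 at 0 there. Only the oligodendrocyte precursor list was lower in both whole cells libraries, at 436.6 and 217.7 CPM against 539.4 and 619.8. The other 7 lists overlapped between the kinds, among them the neuronal one at 1810 and 3832 against 1859 and 1890 and the endothelial one at 47.6 and 38.2 against 33.7 and 53.5, with 5 of 6 endothelial markers at 0 in whole cells replicate 1. The part of these marker levels in the results was not tested.

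The rule fixed the sum over the whole cells libraries but not its split, which can be compared between replicates. The median CPM ratio of replicate 2 over replicate 1 was 1.15 over the members, 61 of which had 0 UMIs in replicate 1, and 1.22 over the 9907 genes. Over the 32 members with at least 30 whole cells UMIs it was 0.693, on the other side of 1. The exact binomial 95% interval lay below 1 for 10 members, above 1 for 0, and covered 1 for 140. Over all 9907 genes, 5.90% lay below and 7.68% above. For the 61 members at 0 in replicate 1 an interval above 1 was out of reach. The best counted of them, ENSOARG00020015821, had 38 UMIs in replicate 2 and a lower end of 0.492. An interval below 1 was in reach with few UMIs, as for SMIM10L1 with 3 and 7 (0.0267 to 0.701). Depth thus limits the 2 sides unequally, and nothing is read from the 0 above 1. Replicate 1 gave only 4.77% of the non-mitochondrial whole cells UMIs, and a gene with 10 UMIs in replicate 2 would have 0.501 at the same level in replicate 1. Differences between the pools were therefore not detectable for most members at this depth, and with 1 library per pool they were not tested.

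ENSOARG00020007267 was the most precise of the 10, with a ratio of 0.332 (0.322 to 0.343). ENSOARG00020016723 had 0.504 (0.441 to 0.578) and ENSOARG00020017311 had 0.623 (0.486 to 0.810). Both 5_8S_rRNA genes were lower still, at 0.241 (0.120 to 0.533) and 0.150 (0.0654 to 0.387). Of the 5 best counted members, 3 were thus at a lower CPM in replicate 2 beyond counting error, and the intervals of ENSOARG00020002046 and ENSOARG00020019802 covered 1. S100A5 had the largest ratio among members with a symbol and at least 30 whole cells UMIs, 2.46, with an interval from 0.421 to 98.98 that covers 1. IFI35 and SMIM30 followed at 2.26 and 1.60, with intervals that cover 1 as well.

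**Figure D5:**
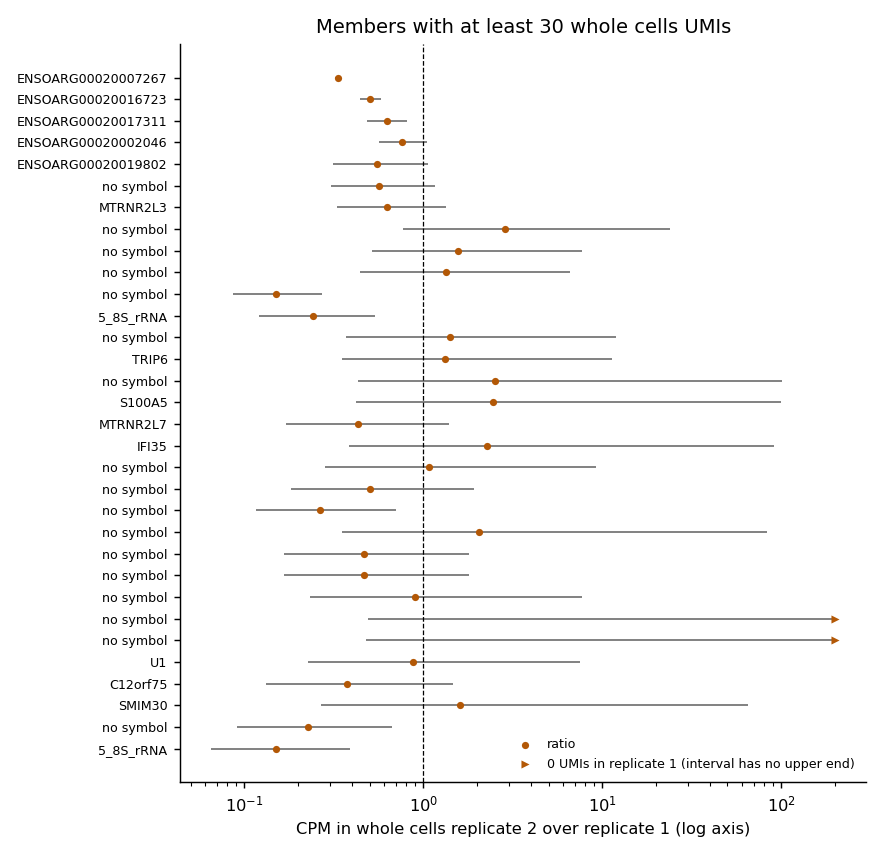
CPM in whole cells replicate 2 over replicate 1 (x axis, log scale) for the 32 members with at least 30 whole cells UMIs, from most UMIs at the top. Points are ratios, lines exact binomial 95% intervals, the dashed line equal CPM, and triangles genes at 0 in replicate 1. ENSOARG00020007267, ENSOARG00020016723, ENSOARG00020017311, both 5_8S_rRNA genes and 3 genes without a symbol lie left of the line with their whole intervals, 8 in all, and no gene lies to the right with its whole interval.

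The members' whole cells UMIs were spread thinly over barcodes. For 111 of 150 members no barcode held more than 1 UMI. Within 10 to 50 whole cells UMIs, this was so for 78.5% of 135 members and for 67.7% of 4325 other genes. Barcodes with at least 200 genes held a median of 4.85% of a member's UMIs, beside 14.8% for the other genes of 10 to 50 UMIs and 11.9% for all 9907 genes. Those barcodes held 7.46% of all non-mitochondrial whole cells UMIs. On the nuclei side, the 444 of 17538 nuclei above 5% mitochondrial UMIs held 3.14% of the members' UMIs, 0.455% of all non-mitochondrial UMIs and 4.85% of the mitochondrial UMIs. Barcodes are not replicates, and these shares carry no test.

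Genes just inside and just outside the limits of the rule lay a few UMIs apart. MLST8, a subunit of the mTOR complexes, was a member with 50 nuclei UMIs, and SLC22A18 and ZNF316 were members with 48 each. RFLNB with 51, RAB9A with 52 and ISYNA1 with 53 fell just outside. At the whole cells limit, CCDC184, SMIM10L1 and SERPINH1, a collagen chaperone, were members with 10 UMIs. CAPG, CCDC102A and AIRE stayed outside with 9.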

How the data were processed

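UMI counts per gene and barcode were used as the authors deposited them. Per the file headers they came from Cell Ranger 6.0.1 (whole cells) and 7.0.0 (nuclei), so program version and library kind cannot be told apart. The submitters' processing notes list Cell Ranger 2.1.1 and 6.0.1 and STAR 2.7.2a. Genome build, annotation, barcode selection and the treatment of introns and strand are not given in the sources used here.

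Counts were summed over all barcodes of a library. Levels are CPM of non-mitochondrial UMIs, whose totals limit the precision to 7.94 CPM per UMI in whole cells replicate 1. Intervals are Wilson or exact binomial at 95%. Sums were tested with edgeR 4.0.16 in R 4.3.3 (TMM, filterByExpr, Benjamini-Hochberg at 0.05), and its p-values measure only the spread between 2 pools per kind. A run on simulated data lacked the different mitochondrial share of the 2 kinds, so it does not cover that difference. The titles pair the libraries by animal pool (correlation of the deviations of same-pool libraries -0.0622 over 1765 genes), and the fit has no block for it.

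The members and gene lists were chosen with earlier results of these data known. Named genes were the 20 members with a symbol and most whole cells UMIs, those with at least 30 and 0 in nuclei, up to 4 per gene list, the 5 with the largest and smallest replicate ratio, the 5 with the largest share in 1 barcode, the 3 genes on each side of a limit, and by identifier the first 5 members. Symbols came from the deposited gene lists. RefSeq's table matched 43 members by symbol (28.7%), so a check of gene type or length was void. Alternatives were other limits, denominators, barcode filters, normalizations, DESeq2 1.42.0, a replicate block and leaving out each library.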

Additional observations from a re-analysis of the deposited data

Results flagged for a closer look

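Between the animal pools, 60 members had opposite directions. Their CPM was lower in whole cells than in nuclei for sheep 1 and 2 and higher in whole cells than in nuclei for sheep 3 and 4. That opposite course was not tested. All 60 had 0 UMIs in whole cells replicate 1, where 0 allows up to 23.8 CPM, while the highest level among them in nuclei replicate 1 was 0.529 CPM, so a difference was not detectable at this depth. For sheep 3 and 4 all 150 members were higher in whole cells.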

How the results depend on the processing

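The 150 members became 72 and 322 with a nuclei maximum of 25 and 100 UMIs, 350 and 66 with a whole cells minimum of 5 and 20, and 4 in barcodes with at least 200 genes. Leaving out 1 library gave from 9 (without whole cells replicate 2) to 405 (without nuclei replicate 1), and 305 without nuclei replicate 2. The mean whole cells share of 2.79% was 0.328% of all UMIs and 0.779% in barcodes with at least 200 genes. Of the 114 members tested, 114 were called with TMM (22.4% of all tested genes) and 64 with library size alone (3.16% of all), which shifted the median log2 fold change of all tested genes from 0.61 to 3.66. In barcodes with at least 200 genes 32 of 47 tested were called (11.7% of all), and with 1 library left out from 38 of 111 (without whole cells replicate 2, 8.4% of all) to 145 of 145 (without whole cells replicate 1, 23.1% of all). The lone library was then assumed to vary like the other kind. The paired fit with a replicate block for the animal pool also called 114, while its share over all genes was 14.2%. The median replicate ratio of 1.15 was 1.33 in CPM of all UMIs and 0.693 for members with at least 30 UMIs. In barcodes with at least 200 genes it could not be given, since 64 of the 97 members counted there had 0 UMIs in replicate 1. The 111 members with at most 1 UMI per barcode were 17 among the 32 with at least 30 UMIs. The cause of these changes was not tested. In all, 15 results under other settings, the replicate block and the fit without whole cells replicate 1 among them, kept within the spread or within 1.5 times. The mitochondrial denominator was chosen after seeing the data.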
